A study of Mus musculus with 5 samples.

Results

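DNaseI hypersensitive sites (DHSs), where chromatin is accessible to cutting by DNase I, were examined at 7 genes of the MHC class II pathway: the classical chain genes H2-Aa, H2-Ab1 and H2-Eb1, the peptide-loading genes H2-DMa and H2-DMb1, the invariant chain gene Cd74 and the regulator gene Ciita. The genes were chosen by symbol, from 21787 protein-coding genes in RefSeq. A site belonged to a gene if it came within 1 kb of any of its transcription start sites (TSS), which is called a promoter site here, or if it lay up to 100 kb away with that gene's TSS as the nearest protein-coding one. By this rule the 7 genes had 53 sites in the 5 lists together. The cells came from 1 line of mouse ES (embryonic stem) cells, strain 129, with GFP under the control of Brachyury (Bry), a gene of early mesoderm, which was kept on feeder fibroblasts and was differentiated in culture. Mesoderm (MES) was sorted as Bry.GFP+ without Flk1, and hemangioblasts (HB) as Bry.GFP+ with Flk1. Hemogenic endothelium (HE) was sorted as Bry.GFP+, Tie2+ and Ckit+ but CD41-. Hematopoietic progenitors (HP) were CD41+ cells, and macrophages (MAC) were CD11b+ cells grown from them. Each stage gave 1 list of sites, so there was no replicate error and no test, and the label of the MAC list names a pair of replicates together. A list holds positions and no signal, so a gene without a listed site need not have closed chromatin.

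MHC class II molecules present peptides from endosomes to CD4+ T cells. An alpha and a beta chain are assembled on the invariant chain, and the DM heterodimer then exchanges the last invariant chain fragment for peptide. Expression is known chiefly from B cells, dendritic cells and activated macrophages, and it depends on CIITA, a co-activator that does not bind DNA itself but joins the RFX, CREB and NF-Y factors assembled on the X and Y boxes of class II promoters.

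The sequences below show these boxes in the promoters and in sites away from the TSS, because the same arrangement turned up in both. The first 4 are the 250 bases before a TSS, from the RefSeq promoter windows of GRCm38.p6, which held 4 of the 7 genes (H2-Aa, H2-Eb1, H2-DMa and H2-DMb1). In the H2-Eb1 and H2-DMb1 promoters capitals mark a match to the X box, a pattern of 14 letters searched with up to 2 mismatches, and the Y box ATTGG 15 to 30 bases after it, which reads CCAAT on the other strand. In the H2-Aa promoter capitals mark TGACG, which is a short form of the CREB site, and ATTGG at the same spacing. The H2-DMa promoter at its first curated TSS is shown because it was the only one of the 4 with sites in 4 stages, and it held neither pair.
H2-Eb1 promoter, chr17:34305617-34305866, + strand: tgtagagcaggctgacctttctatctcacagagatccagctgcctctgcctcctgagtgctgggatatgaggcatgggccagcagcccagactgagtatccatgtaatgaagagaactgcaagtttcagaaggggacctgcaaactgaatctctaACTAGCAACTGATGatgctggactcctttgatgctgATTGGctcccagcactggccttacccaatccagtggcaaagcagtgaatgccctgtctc
H2-DMb1 promoter, chr17:34152941-34153190, + strand: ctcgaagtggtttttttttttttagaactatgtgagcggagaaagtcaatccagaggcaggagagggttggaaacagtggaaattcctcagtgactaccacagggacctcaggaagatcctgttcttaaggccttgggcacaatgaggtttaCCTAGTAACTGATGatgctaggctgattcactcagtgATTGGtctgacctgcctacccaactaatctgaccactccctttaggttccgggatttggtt
H2-Aa promoter, chr17:34287824-34288073, - strand: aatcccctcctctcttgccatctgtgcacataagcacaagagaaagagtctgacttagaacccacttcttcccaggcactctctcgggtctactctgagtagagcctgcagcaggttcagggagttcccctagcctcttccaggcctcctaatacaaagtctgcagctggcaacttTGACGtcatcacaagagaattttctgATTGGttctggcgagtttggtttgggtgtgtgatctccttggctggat
H2-DMa promoter, chr17:34122582-34122831, + strand: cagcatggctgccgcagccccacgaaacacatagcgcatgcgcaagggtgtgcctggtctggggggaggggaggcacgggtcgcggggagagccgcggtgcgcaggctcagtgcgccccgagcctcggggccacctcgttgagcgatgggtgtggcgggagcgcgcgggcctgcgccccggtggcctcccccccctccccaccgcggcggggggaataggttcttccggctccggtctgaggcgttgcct
The next 4 are stretches of 100 bases within sites beyond 1 kb of a TSS, read from the same build, with capitals for the X box and ATTGG in the first 2 and for TGACG and ATTGG in the others.
H2-Ab1, site 5.4 kb upstream, chr17:34257702-34257801, + strand: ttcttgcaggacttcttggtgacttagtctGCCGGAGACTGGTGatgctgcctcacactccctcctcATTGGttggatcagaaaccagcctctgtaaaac
H2-Ab1, site 1.5 kb upstream, chr17:34261657-34261756, - strand: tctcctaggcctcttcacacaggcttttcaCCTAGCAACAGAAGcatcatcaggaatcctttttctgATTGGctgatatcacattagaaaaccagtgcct
H2-Aa, site 3.9 kb upstream, chr17:34291721-34291820, + strand: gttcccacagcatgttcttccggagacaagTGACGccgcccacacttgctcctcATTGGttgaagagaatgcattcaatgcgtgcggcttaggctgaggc
H2-Aa, site 8.5 kb upstream, chr17:34296236-34296335, + strand: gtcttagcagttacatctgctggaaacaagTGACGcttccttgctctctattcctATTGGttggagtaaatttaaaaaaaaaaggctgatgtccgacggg

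In the lists as deposited, more of the class II genes had a promoter site in MES, HB and MAC than in HE and HP, and in MAC this rested on narrow sites. In MES 5 of the 7 genes had a promoter site, in HB 6 genes, in HE 2 (H2-Ab1 and H2-DMa) and in HP 1 (H2-DMa). In MAC 4 genes had one, H2-Ab1, H2-Eb1, H2-DMa and Ciita. Such a site was listed, over all protein-coding genes, for 55.5% of them in MES, 57.1% of them in HB, 59.8% in HE, and 48.6% and 48.7% in HP and MAC. Read against these shares, 4 of 7 in MAC and 5 of 7 in MES are near the level of all genes. HB had 6, the 5 genes of MES and H2-DMb1, so it is not set apart from MES here. HE and HP, with 2 and 1, stood below the level of all genes. When each list was cut to its widest sites, up to the length of the shortest list, a promoter site remained for 5 genes in MES and HB alike, 0 in HE and 1 each in HP and MAC. Over all protein-coding genes the same cut left 52.6%, 52.5%, 51.7%, 48.6% and 38.6% from MES to MAC. When sites narrower than the median of their list were dropped, it remained for 2 genes in MES, 3 in HB, 0 in HE and 1 each in HP and MAC, where the shares over all genes were 42.9%, 48.1%, 51.9%, 37.7% and 40.1%. MAC and HP thus had the same count of class II genes under both width settings, and under the first the share of all genes was lower in MAC than in HP as well. H2-DMa shares promoter sites with another gene, as given below, though it also had one of its own in MAC. Without H2-DMa the counts were 4, 5, 1, 0 and 3 of 6 genes in the same order. H2-Aa, H2-Ab1, H2-Eb1, H2-DMa and Cd74, 5 of the 7 genes, had promoter sites in both MES and HB. Of these 5, 4 had none in HP, and 2 of them, H2-Ab1 and H2-Eb1, had one in MAC. Among all 11636 genes with a promoter site in both MES and HB, 13.3% had none in HP, and 3.51% had none in HP and one in MAC.

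**Figure D1:**
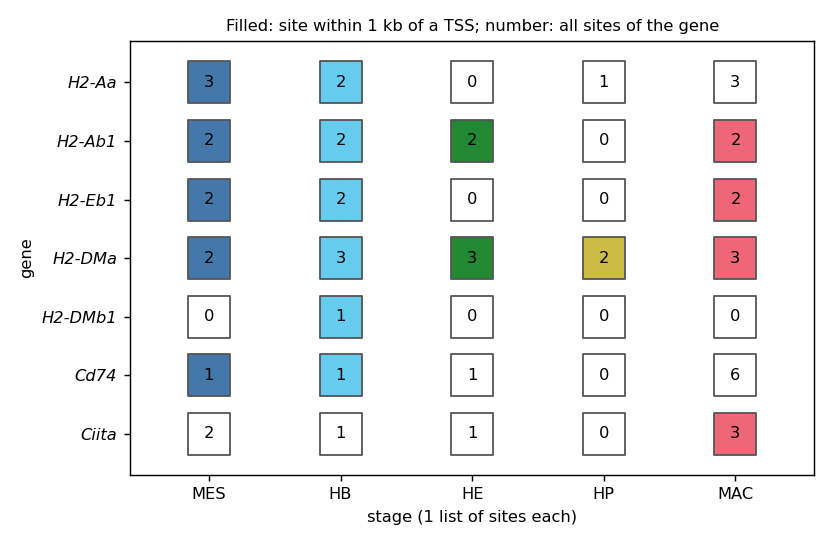
Each square is a gene (rows) in a stage (columns, 1 list each). A filled square has a site within 1 kb of a TSS of that gene, and the number is its count of all sites. The HP column is empty but for H2-DMa, with 2 sites, and a single site of H2-Aa, and the highest number is the 6 sites of Cd74 in MAC.

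Counted with the sites away from the TSS, the 7 genes had 12 sites in MES, 12 in HB and 7 in HE, then 3 in HP and 19 in MAC. Without H2-DMa the counts were 10, 9, 4, 1 and 16 in the same order. The mean per gene was 1.71 in MES and HB alike, 1 in HE, 0.429 in HP and as high as 2.71 in MAC, where the mean over all protein-coding genes was 1.02, 1.13, 1.48, 0.842 and 1.64. MAC stood first and HP last in the lists as deposited, and with 1 list per stage it cannot be said which neighbours in this order differ. With every list cut to the length of the shortest the order turned, with 8 sites in MES, 7 in HB and 5 in MAC, then 3 in HP and 1 in HE, while the mean over all genes was 0.817 to 0.842 sites per gene in every list. With sites narrower than the median of their list dropped, MAC stayed first, with 3, 4, 1, 2 and 5 sites from MES to MAC. The mean over all genes was then 0.55, 0.68, 0.845, 0.463 and 0.876 in the same order. Sites beyond 1 kb of a TSS accounted for 13 of the 19 sites in MAC (68.4%) and for 6, 5, 4 and 1 in MES, HB, HE and HP. Of all sites in the MAC list 72.1% lay beyond that reach, and 46.9%, 51.4%, 61.1% and 44% in the same order of the other lists, so the share for the class II genes was near that of their list in MAC. When sites that overlapped between stages were joined, the 53 sites formed 31 places, of which 20 were listed in 1 stage alone. Of these, 12 were listed only in MAC, 4 only in HE, 2 only in HB, 2 only in MES and none only in HP. Joined in the same way, the sites of the whole series formed 65654 places, of which 57.6% were listed in 1 stage alone and 31.1% only in MAC, against 64.5% and 38.7% here. Places only in HE, HB, MES and HP made up 15.4%, 5.32%, 3.78% and 2.01% of the series, against 12.9%, 6.45%, 6.45% and 0% here. Another 3 places (9.68%, against 4.41% in the series) were shared by MES and HB and by no other stage.

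The lists themselves differed in length and in the width of a site, and the cell labels were checked on marker genes. The shortest list was HP (17734 sites), followed by MES (21949), HB (24729), HE (33305) and MAC (37456), and the median width ran from 600 bp in MAC to 1200 bp in HE. The class II genes thus had fewest sites in the shortest list and most in the longest, but only 7 in HE, the second longest, and the counts at equal list length are given above. Promoter sites of 8 macrophage markers numbered 2, 2, 3, 3 and 8 from MES to MAC, with Itgam, which encodes the sorting marker CD11b, listed in MAC only. In MES and HB all 3 mesoderm markers had a promoter site. Endothelial markers had one in 1, 1, 4, 2 and 1 of 4 genes from MES to MAC, with Kdr listed in all 5 stages and Pecam1 in HE and HP. Pluripotency markers had one in 3 of 3 genes in MES, 2 in HB, 1 in HE and none in the later stages, and the mesoderm markers had one in 2 of 3 in HE and none later. Both lists, like the class II genes, had more in MES and HB than in HE and HP, and their part in these counts was not tested. No list of markers was set for HP. Of the other cells that use MHC class II, B cell markers had a promoter site in 1 of 6 genes in every stage (Ebf1), and dendritic cell markers in 3, 3, 3, 2 and 2 of 6, the ones in MAC being Zbtb46 and Itgax. Every B cell marker but Ebf1 lacked a promoter site in all lists, as did the dendritic cell markers Xcr1 and Clec9a, while Itgax had one in MAC only. Counted with sites away from the TSS, the 6 B cell markers had 7, 9, 14, 5 and 4 sites from MES to MAC. Pax5 had 4, 4, 3, 1 and 1 of them. The 6 dendritic cell markers had 4, 5, 9, 5 and 19 sites in the same order. In MAC these included 5 for Itgax, 6 for Batf3, 2 for Xcr1 and 1 for Clec9a, and Itgax, Xcr1 and Clec9a had 0 elsewhere. The part of such cells in the counts of the class II genes was not tested. MAC was also the list with the highest mean over all genes, 1.64 sites per gene. T cell markers had a promoter site in none of 4.

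H2-Ab1, which encodes the beta chain of the I-A molecule, lies at chr17:34263227-34269418 on the + strand. Its TSS was covered in MES by a site of 600 bp (chr17:34262992-34263591), in HB by one of 700 bp (chr17:34262829-34263528), in HE by one of 500 bp (chr17:34263224-34263723) and in MAC by one of 300 bp (chr17:34263088-34263387), and no site was listed for the gene in HP. The HE site was not placed like the others. Its middle was 247 bp downstream of the TSS, in an intron, while the middles in MES, HB and MAC were within 65 bp of the TSS, and it was narrow for its list, in which 3.97% of sites were as narrow or narrower. HE had a further site of 800 bp in an intron, 1.9 kb downstream, that no other stage had. The sites upstream differed by stage as well. MES alone had a site of 400 bp 1.53 kb before the TSS. HB and MAC shared a place about 5.4 kb before it, within the non-coding gene Gm20506, where the HB site was 400 bp wide and the MAC site 700 bp (chr17:34257488-34258187). The promoter pattern of H2-Ab1, all stages but HP, was that of 378 genes (1.73%).

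H2-Aa encodes the partner alpha chain and is read on the - strand (chr17:34282744-34287823), with 13.3 kb between it and H2-Ab1. A promoter site was listed in MES (chr17:34287592-34288191, 600 bp) and in HB (chr17:34287329-34288228, 900 bp). HE, HP and MAC had none, so in MAC the TSS of H2-Ab1 had a site and that of H2-Aa had not. Most of the H2-Aa sites were upstream of the gene and intergenic. A place 3.9 kb upstream was listed in MES (500 bp), HB (400 bp), HP (700 bp, chr17:34291392-34292091) and MAC (200 bp), and it was the only site of a classical chain gene in HP. MES and MAC shared a place 8.5 kb upstream, with 200 bp and 300 bp. A further upstream site, 200 bp wide and 5.96 kb away, was listed in MAC alone. The 200-bp sites are near the lower end of the MAC list, in which 11.4% of sites were that narrow or narrower. H2-Aa had no site in HE.

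H2-Eb1, the beta chain gene of the I-E molecule (chr17:34305867-34316674, + strand), had a promoter site in MES, HB and MAC. The sites were wide in MES (1100 bp, chr17:34304792-34305891) and HB (1300 bp, chr17:34304729-34306028), reaching over 1 kb upstream, and 500 bp in MAC (chr17:34305488-34305987). In the lists as deposited 30 genes (0.138%) had this pattern, and under both width settings the MAC site was lost, which left MES and HB. A window of 300 bases in the middle of this place was 77% repeat sequence, against a median of 7.33% over the site windows of all lists. In the introns, MES and HB shared a place 7.7 kb downstream of the TSS, with 400 bp and 700 bp, and MAC had a site of 200 bp 6.62 kb downstream, which did not overlap it. No site was listed in HE or HP.

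**Figure D2:**
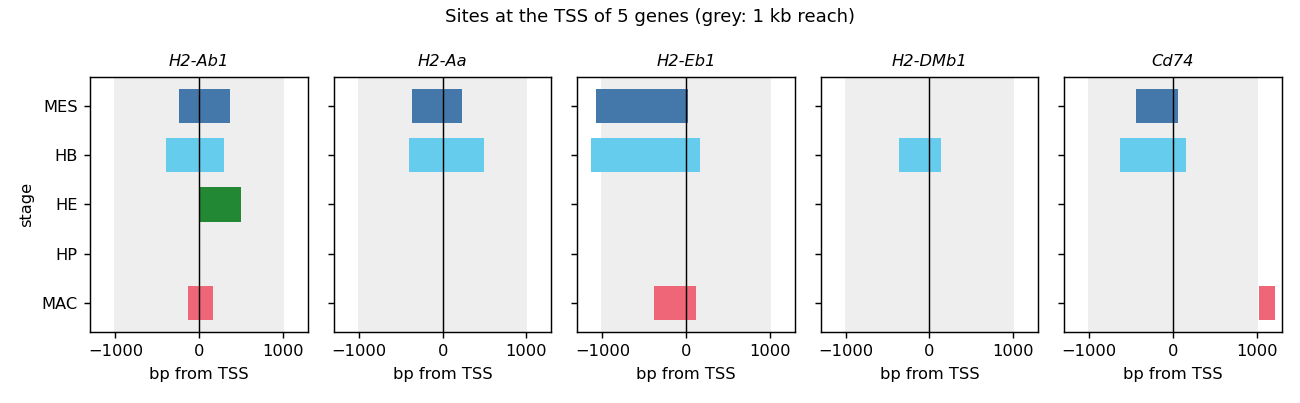
Bars are listed sites drawn to scale around the TSS (black line, 0) of 5 genes, in bp with upstream to the left, for each stage (rows), and grey marks the reach of 1 kb. H2-Ab1 has a bar in every stage but HP, the HE bar of H2-Ab1 starts at the TSS, and the Cd74 site of MAC begins just beyond the grey area.

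The DM genes stood at opposite ends. H2-DMa, which encodes the alpha chain of DM (chr17:34119693-34139101, + strand), had promoter sites in all 5 stages, as 9155 genes (42%) did. It has 5 annotated TSS, 2 of them curated, and lies head to head with Brd2, a widely expressed gene of transcription that is read on the - strand and has a TSS 18 bp from one of H2-DMa. The place that was listed in all 5 stages (chr17:34118792-34119928) and the place at the first curated TSS, listed in MES, HB, HP and MAC with widths of 800 to 1000 bp, were both promoter sites of Brd2 too, so to which gene they belong cannot be told apart. Their windows had a GC content of 67% and 70.3% and an observed over expected CpG ratio of 1.05 and 0.755, against medians of 51% and 0.256 over all site windows. In the other windows of the 7 genes that were read the ratio was 0.556 or less. In HE the place at the first curated TSS was not listed, and a site of 1000 bp (chr17:34120824-34121823) lay 868 bp from a predicted TSS, just inside the reach. Sites not shared with Brd2 were in HB (600 bp, 2.11 kb downstream of a TSS), HE (700 bp, 3.56 kb downstream) and MAC (400 bp). The MAC site lay 305 bp from a predicted TSS and within 1 kb of the curated TSS at position 34125518. H2-DMb1, one of the genes for the DM beta chain (chr17:34153191-34160229, + strand), had a single site, at its TSS in HB (500 bp, chr17:34152829-34153328), and 183 genes (0.84%) had a promoter site in HB only.

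Another place within H2-DMa, near its 3′ end, was listed in all 5 stages but counts for the beta chain gene H2-DMb2, whose TSS is the nearest. It was 1000 bp wide in MES and HP, 1200 bp in HB, 1300 bp in HE and 900 bp in MAC. H2-DMb2 had a promoter site in MAC only. Of the other class II genes, H2-Eb2 had a promoter site in MES, H2-Oa in HB and H2-Ob in no stage, and H2-Ea is not protein-coding in the annotation.

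Sequences shared by the promoters and the distant sites were then counted. The X box with a Y box was found in the H2-Eb1 promoter, where the X box starts 95 bases before the TSS, has 1 mismatch and is 22 bases from the Y box, and in the H2-DMb1 promoter, where it starts 98 bases before the TSS, has 0 mismatches and is 23 bases from the Y box. Of 32851 promoter windows of 300 bases, 0.295% held this pair. In the H2-Aa promoter TGACG starts 74 bases before the TSS, 21 bases from ATTGG, a pair that 0.575% of promoter windows held, and the search for it was added after the sequences had been seen. CCAAT alone was common, in 37.4% of promoter windows, as was TGACG, in 20.8%. All 3 pairs lay wholly inside listed promoter sites, in MES, HB and MAC for H2-Eb1, in MES and HB for H2-Aa and in HB for H2-DMb1.

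The same pairs were in sites upstream of H2-Ab1 and H2-Aa. Windows of 300 bases from the middle of 28 of the 31 places were read, leaving out those at the TSS of H2-Ab1, Cd74 and Ciita. Of the 28, 3 held the X box with a Y box, which were the H2-DMb1 promoter and the places 5.4 kb and 1.53 kb upstream of H2-Ab1. Over the 65645 site windows of all lists the share was 0.209%. Another 3 held TGACG with ATTGG, and all 3 belonged to H2-Aa, its promoter and the places 3.9 kb and 8.5 kb upstream, where the share over all windows was 0.299%. That pair was chosen with H2-Aa sequences in view, so its count at H2-Aa is a description and the excess over that share supports nothing. The X box with a Y box was in 137 windows of the series, of which 3 were nearest to H2-Ab1 or H2-DMb1. Any class II gene was nearest for 6 of the 137, which adds H2-Oa, H2-DMb2 and H2-Eb2. With either pair counted there were 325 windows, of which 6 were nearest to H2-Aa, H2-Ab1 or H2-DMb1 and 9 to any class II gene. The H2-DMb2 window, with its middle at position 34135505, lay in the place within H2-DMa that counts for H2-DMb2. That place was listed in all 5 stages, HE and HP included. The pair 3.9 kb upstream of H2-Aa lay inside the sites of MES, HB, HP and MAC, the pair 8.5 kb upstream inside those of MES and MAC, the pair 5.4 kb upstream of H2-Ab1 inside those of HB and MAC and the pair 1.53 kb upstream inside that of MES. With 1 mismatch allowed in the X box 2 of the 28 windows held its pair, against 0.0305% of all windows, and with 3 mismatches 5 did, against 1.33%, the ones added to the 3 above being the places 3.9 kb and 8.5 kb upstream of H2-Aa. A match is a run of letters, and binding at it was not measured here. Patterns of other factors were near the level of all site windows or rested on few windows. GAGGAAGT, a PU.1 pattern, was in 3 of 28 windows (10.7%, against 6.31%), the IRF pattern in 1 (3.57%, against 3.66%), and TGTGGT, a RUNX pattern, in 5 (17.9%, against 22.8%).

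Cd74, which encodes the invariant chain, lies apart from the H2 genes at chr18:60803849-60812652, + strand. Its promoter pattern was that of H2-Aa, with a site over the TSS in MES (500 bp, chr18:60803408-60803907) and HB (800 bp, chr18:60803211-60804010) and none in HE, HP or MAC, a pattern of 299 genes (1.37%). In MAC the gene had 6 sites, and none was within 1 kb of the TSS. They were 14.4, 11.7 and 8.63 kb upstream, in intergenic sequence, and 1.12, 2.07 and 3.67 kb downstream, in introns. The widest was the one at 8.63 kb, of 700 bp (chr18:60794872-60795571), and the others were 200 to 500 bp. None of these 6 places was listed in another stage. As many sites or more were listed in MAC for 1312 genes (6.02%). The first intron site missed the promoter reach by little, with its edge 1023 bp from the TSS, and counts as a promoter site with a reach of 2 kb. HE had 1 site, 19.4 kb downstream in an intron of Tcof1, and HP none.

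Ciita encodes the regulator itself (chr16:10480014-10531064, + strand). Its transcripts start from alternative first exons, which different cell types and interferon-gamma are known to use, and the annotation gives 7 TSS, of which 3 are curated (positions 10480072, 10488178 and 10489781). MAC was the only stage with a promoter site, as for 375 genes (1.72%), and neither width setting kept that site. The site was 500 bp wide (chr16:10489108-10489607), between the last 2 curated TSS and within 1 kb of each. Its edge was 88 bp from a predicted TSS. The TSS furthest upstream had no site within 1 kb in any list. MAC had a site of 700 bp 3.96 kb before that TSS and one of 400 bp 6.33 kb after the last curated TSS, neither of which another stage had. MES, HB and HE shared an intron place 12.2 kb after the last curated TSS, of 500, 500 and 1000 bp, which was not listed in MAC. MES had a site of 300 bp 14.6 kb upstream, and HP had no site for Ciita.

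**Figure D3:**
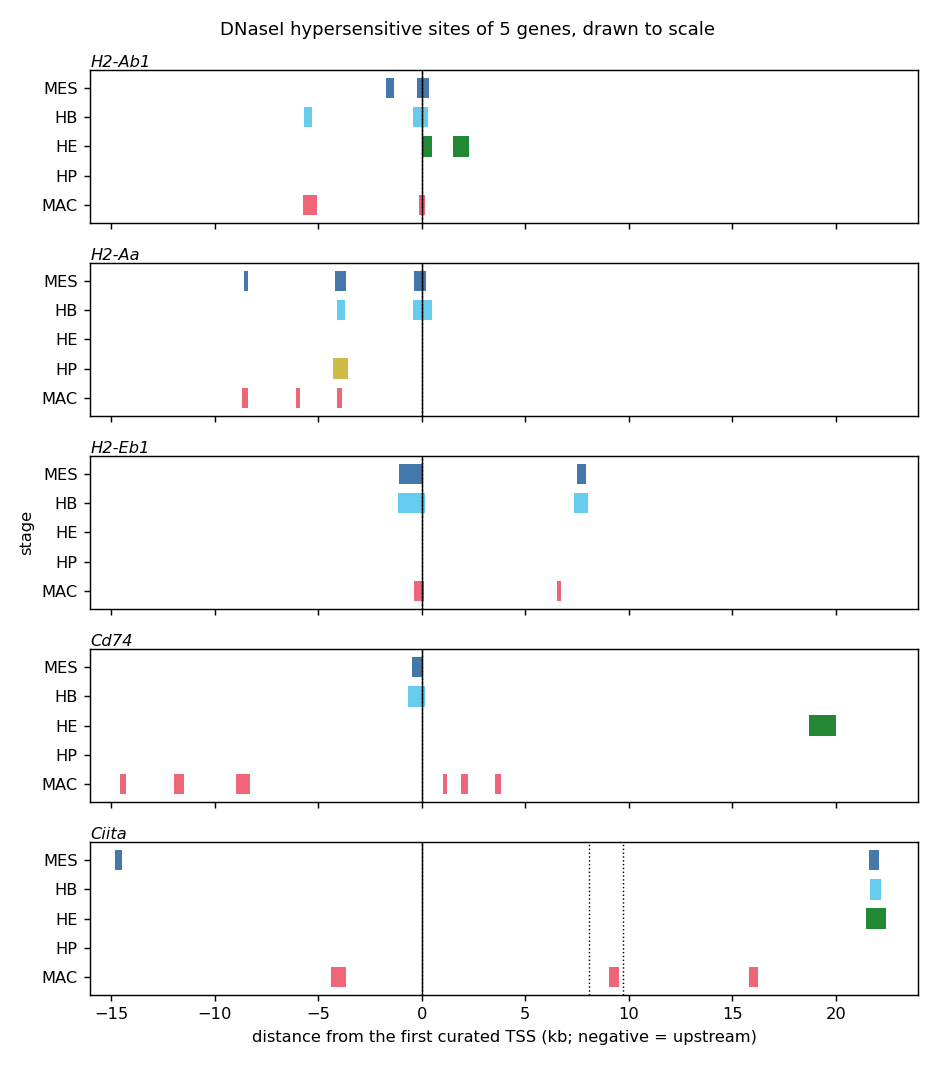
Bars are listed sites drawn to scale, by distance from the first curated TSS of each gene in kb (negative is upstream, solid line at 0, dotted lines for curated TSS), for each stage (rows). Cd74 has 6 MAC sites on both sides of its TSS, and the Ciita place shared by MES, HB and HE, at the right, has no MAC bar.

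Of the genes around this pathway, taken from lists by role, the class I and co-stimulatory genes had their lowest count of promoter sites in HP alone, the list in which 48.6% of all genes had one. The 7 genes of the factors that bind the X and Y boxes (Rfx5, Rfxank, Rfxap, Nfya, Nfyb, Nfyc and Creb1) had a promoter site in every list. Of 11 genes that regulate Ciita, 8, 9, 11, 9 and 11 had one from MES to MAC. Among them Spi1, the gene of PU.1, had it in HE, HP and MAC, Irf4 in HE and MAC, and Irf1, which acts downstream of interferon-gamma, in all 5 stages. The 9 genes of class I presentation all had a promoter site in MES, HB, HE and MAC, and 5 had one in HP, where Tap2, Psmb8, Nlrc5 (the class I counterpart of Ciita) and H2-D1 had none. Of 5 genes of endosomal processing, 4 had a promoter site in every stage, and Ctss, the cathepsin that trims the invariant chain, in MAC only. Of the co-stimulatory genes, Cd80 and Cd86 had one in MAC only, Icam1 in all stages but HP and Cd40 in all 5, so that 2, 2, 2, 1 and 4 of these 4 genes had one from MES to MAC.

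**Figure D4:**
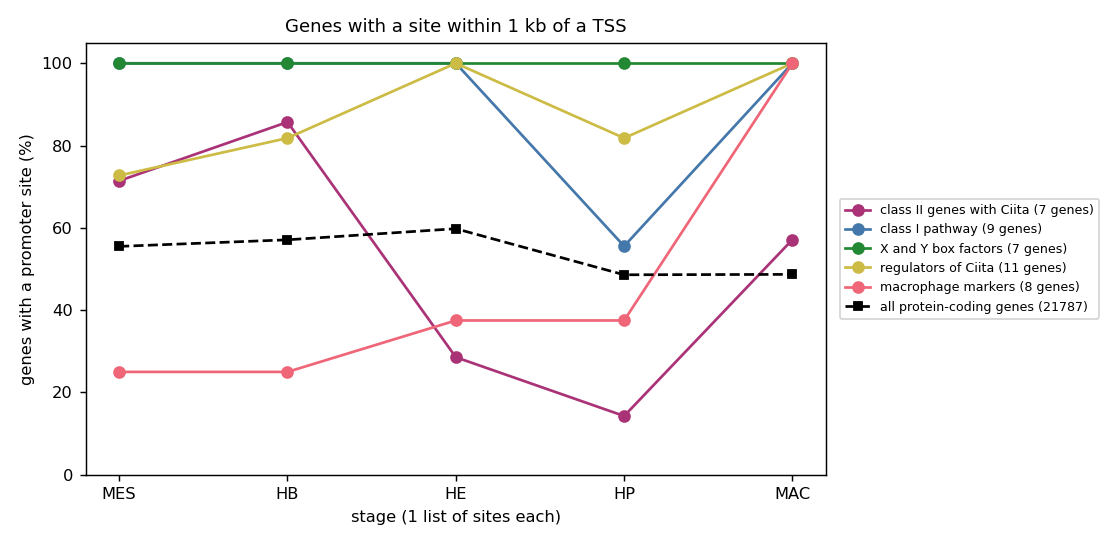
The share of genes in each list (in percent) with a site within 1 kb of a TSS, by stage, with 1 list of sites per stage and the dashed line for all 21787 protein-coding genes. The 7 genes, which include Ciita, go from 6 with a promoter site in HB to 1 in HP and 4 in MAC, while the 7 X and Y box factors stay at the top in every stage.

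The genes with the most similar site counts were searched over 10 values, a promoter site or none and the number of sites in each of the 5 stages, with the summed difference as the measure. Tm2d1 matched H2-Ab1 in all 10 values (summed difference 0), with no other gene as near. Dlgap2 was nearest to H2-Aa, with a difference of 1. For H2-Eb1, Aldh1b1, Hsd17b14 and Tnnt3 were tied at 1. Ciita had 4 genes tied at 1, Aldh8a1, Arhgap30 and Pla1a among them. Cd74 had its nearest 5 at 2, among them Mkx, Plxdc2 and Slc27a6. H2-DMa had 8 genes at 0, such as Ccin and Cggbp1.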

How the data were processed

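DNaseI-seq was carried out on 5 sorted stages, with 1 list of sites each. Per the study's methods the authors aligned the reads to mm10 with Bowtie, kept reads with a unique position and removed duplicates. They ran DFilter on bins of 100 bp to find sites. What the filter for unique positions did to sites in genes alike in sequence was not tested. Each deposited line gives a chromosome, a start and an end position (base pairs), without score or read count, and the labels' notes also name HOMER. Versions were not given in the sources used here. Depth is unknown from these values, so no interval or floor was computed. All widths were multiples of 100 bp, with 0 repeated intervals and 0 sites past the end of a chromosome. TSS came from the RefSeq annotation of GRCm38.p6, predicted transcripts included. Sites were linked to genes by the rule given in the report, using Python 3.11.15 and numpy 2.4.6, and the linking was tested on simulated sites. Sites of several stages that overlapped by at least 1 bp were joined. Motifs were searched on both strands. The 7 genes, the gene lists and the motifs were chosen with earlier results of these data known. All 7 genes were named with every site, and other genes by their list or by the smallest summed difference. With 1 list per stage no test was possible. Alternatives changed the TSS reach, the TSS set, the site windows, the linking rule and the widths kept.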

Additional observations from a re-analysis of the deposited data

How the results depend on the processing

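Of 70 alternative values of the counts by stage, 56 stayed within 1.5 times the reported count and 14 did not. When sites narrower than the median of their list were dropped, a promoter site remained for 2 genes in MES, 3 in HB, 0 in HE and 1 in MAC, against 1 in HP, and the sites numbered 3 in MES, 4 in HB and 1 in HE, with 2 in HP and 5 in MAC. When the widest sites of each list were kept up to the length of the shortest list, a promoter site remained for 0 genes in HE and 1 in MAC, against 1 in HP, and the sites numbered 8 in MES, 7 in HB and 1 in HE, with 3 in HP and 5 in MAC. The excess of MAC over HP in promoter sites ended under both settings. Ciita and H2-DMb1 had no promoter site left under either setting, and H2-Eb1 lost its site in MAC. H2-Ab1 lost its sites in HE and MAC under both, and those in MES and HB under the median setting, which also took both promoter sites of Cd74 and the MES one of H2-Aa. The report gives the shares and the means over all genes at both settings. With curated TSS only, 1 gene had a promoter site in HE, as H2-DMa lost its own. Cd74 gained a promoter site in MAC with a reach of 2 kb or with sites set to 500 bp around their middle. The counts in HP were within 1.5 times the reported ones under every alternative run. No paired analysis was possible because each stage had 1 list and the labels give no shared replicate numbers. The lists hold no signal, so a weak site and none cannot be told apart.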
